A study of Mus musculus with 8 samples.

Results

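The genes described here are 10 muscle genes grouped as responsive to stretch and load. Their proteins carry ankyrin repeats, LIM domains or Xin repeats. The 10 genes are *Ankrd1*, *Ankrd2*, *Ankrd23*, *Csrp3*, *Fhl1*, *Fhl2*, *Fhl3*, *Xirp1*, *Xirp2* and *Nrap*. They were chosen by gene symbol, and all 10 were found among the 16686 genes with counts. RNA was sequenced from the tibialis anterior (TA) muscle, a fast-twitch muscle of the lower leg, of 8 male mice aged 22 months, with 1 library per mouse. The 4 WT mice carried an intact *Mybpc2* gene on the FVBN background, and the 4 C2-/- mice, on the same background, lacked fast myosin binding protein-C in all tissues from birth because most exons of *Mybpc2* had been replaced by a Neo cassette. The labels name no treatment. Their account of husbandry gives an age of at most 2 months, against 22 months in the age label and in the account of dissection, which was used here. The question was whether the loss of this thick-filament protein altered the gene expression of aged fast muscle.

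The members of this group sit where force passes through the sarcomere. The muscle ankyrin repeat proteins bind the N2A segment of titin, the giant spring of the sarcomere, and can also enter the nucleus. LIM-only proteins dock at the Z-disc and on titin, and Xin repeat proteins and Nrap bind actin where thin filaments meet the membrane, mainly at the myotendinous junction. Several of these genes are known to be induced by stretch, overload, denervation and muscle damage, so they are often read as markers of mechanical stress.

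The libraries held between 25425993 and 29747692 counts, and *Mybpc2* was at 4964 to 7392 CPM (counts scaled to the library size) in WT and at 3.85, 4.02, 4.35 and 38.3 CPM in C2-/-. Markers of fast fibres matched the labelled tissue: the 12 listed genes, from *Myh4* to *Pvalb*, summed to between 223151 and 296107 CPM, whereas the 8 markers of slow fibres summed to between 45.8 and 85.3 CPM. WT replicate 2 stood apart from the other mice, since it held the highest value in 27.5% and the lowest in 24.5% of the 12542 genes tested. It was also the mouse with the highest value of 6 of the 9 tested members, and genotype differences that rest on it are given with and without it. In bulk muscle, fewer cells of a type and less RNA per cell cannot be told apart.

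The stretches upstream of *Ankrd1*, *Ankrd2* and *Csrp3* are shown because these 3 genes varied most between the mice. They are the 250 bases before a RefSeq transcription start in GRCm38.p6, on the strand of the gene. Of the listed starts, the one nearest to the start of the gene interval was taken. For *Ankrd2* it lay 109 bases inside the interval given below, so that the last bases of its stretch are within the gene. Among the members, 9 of the 10 had an entry. *Xirp1* was the member that was not matched. Capitals mark 3 motifs, searched on both strands: the M-CAT letters CATTCC (the motif of TEAD factors, GGAATG when read on the other strand), the E-box letters CANNTG (the motif of factors such as MyoD) and the TATA box letters TATAAA. *Ankrd1* is read from chr19:36119845-36120094 on the minus strand, *Ankrd2* from chr19:42035777-42036026 on the plus strand and *Csrp3* from chr7:48848052-48848301 on the minus strand.
Ankrd1: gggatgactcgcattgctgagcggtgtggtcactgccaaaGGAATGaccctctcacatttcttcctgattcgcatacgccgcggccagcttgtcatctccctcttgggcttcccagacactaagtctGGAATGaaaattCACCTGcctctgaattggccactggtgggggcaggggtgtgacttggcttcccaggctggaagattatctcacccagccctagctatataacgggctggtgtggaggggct
Ankrd2: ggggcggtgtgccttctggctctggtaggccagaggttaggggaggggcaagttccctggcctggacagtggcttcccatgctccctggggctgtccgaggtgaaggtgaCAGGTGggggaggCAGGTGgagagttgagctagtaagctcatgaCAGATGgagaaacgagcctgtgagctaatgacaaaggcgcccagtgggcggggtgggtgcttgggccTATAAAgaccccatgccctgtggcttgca
Csrp3: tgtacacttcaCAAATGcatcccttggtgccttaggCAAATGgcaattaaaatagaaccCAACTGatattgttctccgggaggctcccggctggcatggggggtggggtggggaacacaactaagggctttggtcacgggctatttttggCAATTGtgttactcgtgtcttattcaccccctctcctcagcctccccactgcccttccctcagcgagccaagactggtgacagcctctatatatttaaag

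Among the 9 members with an entry, the M-CAT letters were found in *Ankrd1* alone, with copies that begin at positions −210 and −123 relative to the start, while 12.6% of all 32851 promoters of the same length held them. An E-box was found in 7 of the 9 members, close to the 66.2% of all promoters. *Ankrd2* held 3 E-boxes and *Csrp3* held 4. The TATA box letters were found in *Ankrd2*, *Fhl1* and *Fhl2*, and in 12.4% of all promoters. The CArG box, the motif of serum response factor, was found in *Fhl1* and *Fhl2*, against 1.47% of all promoters, and the MEF2 motif in *Xirp2*, against 1.69%. The stretches of *Fhl1*, *Fhl2* and *Fhl3* end at starts that lie 47963, 19832 and 4734 bases inside the gene intervals given below. The CArG and TATA box matches of *Fhl1* and *Fhl2* therefore belong to these inner starts. These matches describe letters and not bound sites.

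Levels of different members were compared only per transcript length, as the TPM values deposited by the authors, which scale counts by transcript length and then to a common total in each mouse. *Ankrd23* was the most abundant of the members, with a median of 2677 TPM over the 8 mice and a range from 1878 to 3477 TPM, above every other member in every mouse. It was followed by *Fhl3* (median 837 TPM), *Fhl1* (712 TPM), *Nrap* (560 TPM) and *Xirp2* (343 TPM), whose neighbouring ranges overlapped. *Xirp1* lay lower, at a median of 78.8 TPM, with no overlap between its range and that of *Xirp2*, but with overlap between its range and that of *Ankrd2*. *Ankrd2* (37.3 TPM), *Ankrd1* (22.6 TPM) and *Csrp3* (14.8 TPM) formed a low and variable trio whose ranges overlapped. *Fhl2*, the LIM protein best known from the heart, was at the limit of what could be measured, with a median of 0.475 TPM and between 2 and 17 rounded counts per mouse. These levels depend on the length used: per annotated exon length, the mean over the 8 mice rose from 872 to 1379 for *Fhl3*, from 550 to 891 for *Nrap*, from 353 to 575 for *Xirp2* and from 81.3 to 132 for *Xirp1*, fell from 20 to 10.2 for *Csrp3*, and placed *Nrap* above *Fhl1* (733).

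**Figure D1:**
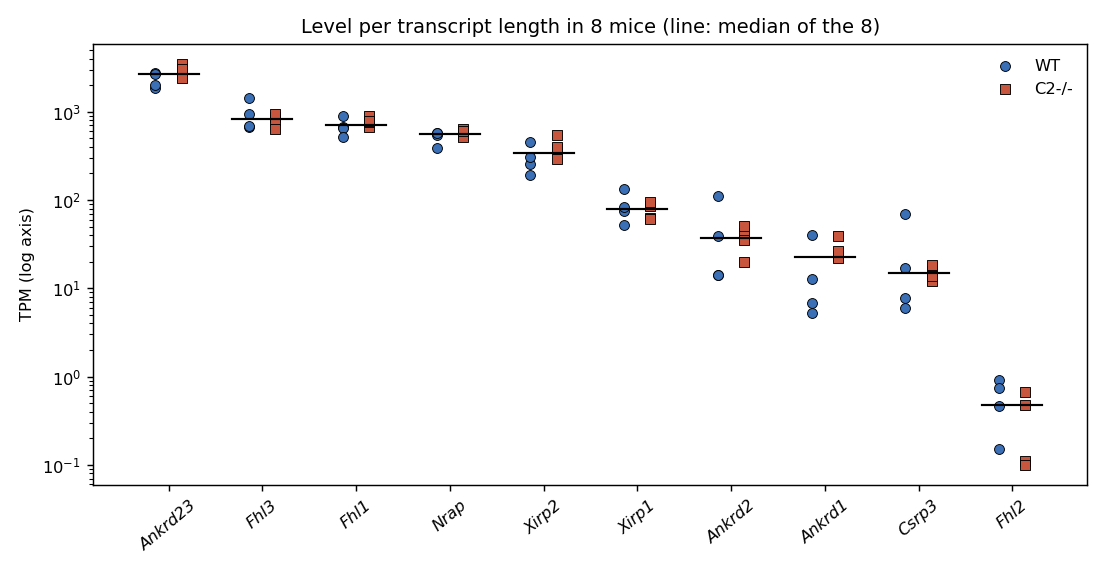
Level per transcript length of the 10 members, in TPM on a log axis, with 1 point per mouse (circles for the 4 WT mice, squares for the 4 C2-/- mice) and a line at the median of the 8 mice. The medians run from 2677 TPM for *Ankrd23* to 0.475 TPM for *Fhl2*, and within the *Ankrd1*, *Ankrd2* and *Csrp3* columns the WT points spread further than the C2-/- points.

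Within the ankyrin repeat family, *Ankrd23* made up between 92.5% and 99.0% of the summed TPM in each mouse. The lowest share, 92.5%, was that of WT replicate 2, where *Ankrd2* made up 5.48% and *Ankrd1* 1.98%. The table gives *Ankrd23* on the plus strand, whereas RefSeq places it on the minus strand. Its record also joins 2 transcripts that are not RefSeq mRNAs to the 2 that are, so that its high level is uncertain to this extent. The interval of *Ankrd23* also overlaps one listed for *Rcor3*. That listed interval is wide enough to reach *Fhl2* as well, so the overlap by itself does not show shared reads, which were not tested.

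Between the genotypes, the members gave no call. Of the 10 members, 9 passed the filter on low counts. *Ankrd1*, *Ankrd23*, *Fhl1*, *Xirp2* and *Nrap* had log2 fold changes (C2-/- minus WT) above 0 and *Ankrd2*, *Csrp3*, *Fhl3* and *Xirp1* below 0. The median over the 9 was 0.07, beside −0.02 over all tested genes. In edgeR's quasi-likelihood test, adjusted after Benjamini and Hochberg over all tested genes, 0 of the 9 members passed 1.5-fold and an adjusted p of 0.05, against 0.0319% of all tested genes. At an unadjusted p of 0.05, 0 members passed in the same test and in limma-voom, and 0 of the 8 members given a p in DESeq2's Wald test, which gave none for *Ankrd1*, against 5.29% of all tested genes in the edgeR test (3.38% higher and 1.91% lower in C2-/-). The lowest unadjusted p of a member was 0.133, for *Ankrd23*. The genotypes separated without overlap in 0 of the 9 members, beside 3.38% of all tested genes (2.03% higher and 1.36% lower in C2-/-). The 95% intervals of the log2 fold changes were wide for the 3 genes of low level, and reached above 1 or below −1, so that differences of more than 2-fold lay within them.

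*Ankrd1* (gene ID 107765, chr19:36111965-36119844, GRCm38.p6 here and for the other members) encodes CARP, the ankyrin repeat protein most readily induced in strained heart and skeletal muscle. In WT, *Ankrd1* was at 5.05, 41.8, 11 and 6.59 CPM in replicates 1, 2, 3 and 4. In C2-/-, it was at 22.4, 19.2, 24.5 and 35.2 CPM in replicates 1, 2, 3 and 4. The C2-/- mice thus lay within a 1.83-fold range, all above 3 of the WT mice and all below WT replicate 2, while the WT mice spanned an 8.28-fold range. The log2 fold change was 0.65 (SE, the standard error, 0.57, 95% interval −0.62 to 1.92, edgeR adjusted p = 0.968), and an exact two-sided permutation test of mean log2 CPM gave p = 0.171, where 4 mice against 4 allow no p under 0.0286.

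Without WT replicate 2, every C2-/- mouse had more *Ankrd1* RNA than every remaining WT mouse. This follows from the values above, since the mouse left out was the only one above the C2-/- mice. Such a separation held for 3.65% of all tested genes in this direction and for 2.83% in the opposite one. Mean expression was then 7.54 ± 3.08 CPM (SD, n = 3 mice) in WT and 25.3 ± 6.92 CPM (SD, n = 4) in C2-/-. The log2 fold change became 1.75 (SE 0.28, 95% interval 1.13 to 2.38, unadjusted p = 9.21e-05, edgeR adjusted p = 0.129). *Ankrd1* was then the only 1 of the 10 members to pass an unadjusted p of 0.05, which 4.05% of the 12652 genes tested without this mouse passed in the same direction and 1.84% in the opposite one. Since the mouse left out was the one with the highest *Ankrd1*, the p without it is no test of genotype. The adjusted p stayed above 0.05 in both cases. Over the 14 alternatives that gave an adjusted p it ranged from 0.129 to 1. Leaving out other mice, the log2 fold change was at its lowest, 0.35, without WT replicate 1 and 0.41 without WT replicate 4, and limma-voom gave 1.14 with all mice (SE 0.52, adjusted p = 0.95).

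*Ankrd2* (gene ID 56642, chr19:42035918-42045111), whose protein is found in slow fibres and rises with stretch and denervation, was at 23.4, 70.6, 7.47 and 8.33 CPM in WT replicates 1, 2, 3 and 4. In C2-/- replicates 1, 2, 3 and 4 it was at 24.8, 10.5, 28.6 and 18.9 CPM. WT replicate 2 was again highest, 2.47-fold above the next mouse, and the genotypes overlapped. Its log2 difference, C2-/- minus WT, was −0.41 (SE 0.64, 95% interval −1.82 to 1.01, edgeR adjusted p = 0.983). Its sign depended on WT replicate 2, without which the log2 fold change was 0.67 (SE 0.43, edgeR adjusted p = 0.988). The sign also depended on the test, since limma-voom gave 0.11 (SE 0.63) with all 8 mice.

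*Ankrd23* (gene ID 78321, chr1:36530193-36536556), a family member linked to energy metabolism, was steadier than its relatives. It was at 3507, 2585, 3051 and 2534 CPM in WT and at 4394, 3111, 2927 and 3612 CPM in C2-/-. C2-/- replicate 1 was highest and WT replicate 4 lowest, with overlap between the genotypes. C2-/- minus WT was 0.27 on the log2 scale (SE 0.16, 95% interval −0.10 to 0.63, edgeR adjusted p = 0.968). The 3 ankyrin repeat genes therefore had different profiles over the mice: *Ankrd1* and *Ankrd2* were highest in WT replicate 2, where *Ankrd23* was among the lower values.

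**Figure D2:**
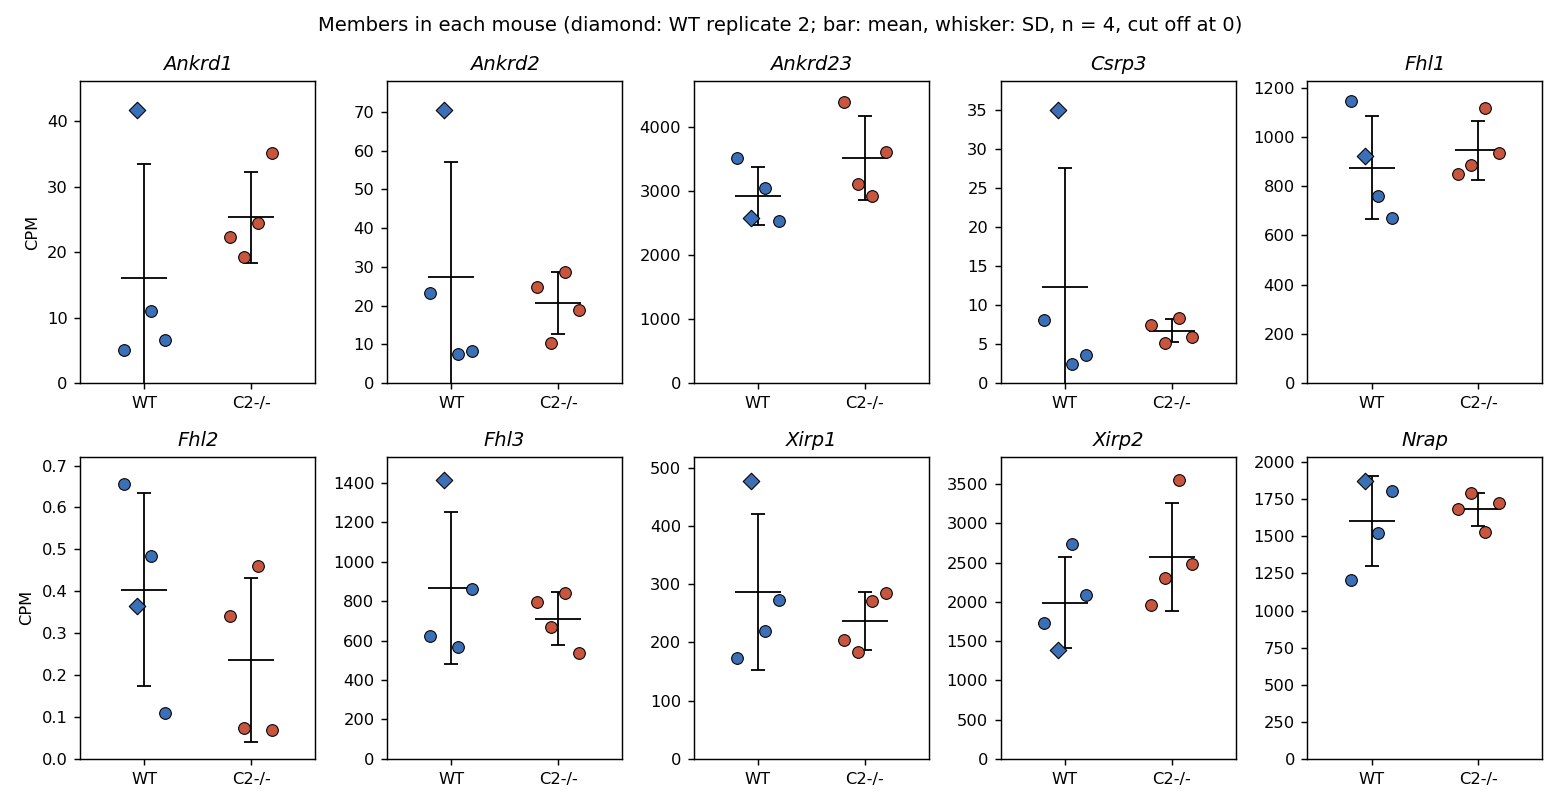
CPM of each of the 10 members in each mouse, with a linear axis from 0 for every gene. Circles are single mice of WT (blue) and C2-/- (red), the diamond is WT replicate 2, and bar and whisker give the mean and SD of the 4 mice, with whiskers cut off at 0. WT replicate 2 lies far above the other WT mice for *Ankrd1* (41.8 CPM), *Ankrd2* (70.6 CPM), *Csrp3* (35.0 CPM), *Fhl3* (1412 CPM) and *Xirp1* (478 CPM), and at the bottom for *Xirp2* (1391 CPM).

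Of the LIM-only genes, *Csrp3* varied most. This gene (ID 13009, chr7:48830398-48848051) encodes muscle LIM protein, a Z-disc protein whose loss leads to dilated cardiomyopathy. It was at 8.14, 35.0, 2.50 and 3.62 CPM in WT replicates 1, 2, 3 and 4, a 14-fold range, and at 7.42, 5.10, 8.37 and 5.96 CPM in C2-/- replicates 1, 2, 3 and 4. WT replicate 2 stood 4.18-fold above the next mouse, and WT replicates 3 and 4 lay below every C2-/- mouse. The log2 fold change was −0.88 (SE 0.69, 95% interval −2.40 to 0.65, edgeR adjusted p = 0.968) and turned to 0.50 (SE 0.36, edgeR adjusted p = 0.994) without WT replicate 2. With all 8 mice, limma-voom gave −0.12 (SE 0.67).

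*Fhl1* (gene ID 14199, chrX:56731720-56793346) encodes the FHL protein that predominates in skeletal muscle and is mutated in several inherited myopathies. It was at 1145, 924, 761 and 670 CPM in WT and at 849, 886, 1118 and 934 CPM in C2-/-. The genotypes overlapped, and the log2 fold change was 0.11 (SE 0.17, 95% interval −0.27 to 0.50, edgeR adjusted p = 0.983). *Fhl3* (gene ID 14201, chr4:124695965-124710596), which can act as a cofactor of transcription in muscle cells, was at 624, 1412, 567 and 861 CPM in WT and at 796, 670, 839 and 539 CPM in C2-/-. WT replicate 2 was 1.64-fold above the next mouse, and the remaining 7 mice lay between 539 and 861 CPM. Its log2 fold change was −0.29 (SE 0.27, edgeR adjusted p = 0.968) with all mice and 0.06 without WT replicate 2. The interval of *Fhl3* in the table overlaps 6 other genes, and its counts are uncertain to that extent.

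*Fhl1* and *Fhl3* carried nearly all FHL transcripts. *Fhl3* made up between 43.2% and 68.1% of the summed TPM of the family, with the highest share in WT replicate 2 and the lowest in WT replicate 1. *Fhl2* (gene ID 14200, chr1:43123071-43216593) was at 0.656, 0.365, 0.485 and 0.109 CPM in WT and at 0.341, 0.0744, 0.461 and 0.0693 CPM in C2-/-. The lowest values, from WT replicate 4 and C2-/- replicates 2 and 4, rested on no more than 3 counts each. Like *Ankrd23*, *Fhl2* is on the plus strand in the table and on the minus strand in RefSeq, and its record joins transcripts that are not RefSeq mRNAs. Its interval overlaps that of *Gm8210* and the same wide interval listed for *Rcor3*. *Fhl2* did not pass the filter, and a difference between the genotypes was not detectable at this depth.

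The Xin genes encode actin-binding repeat proteins, of which XIRP1 (Xin) is known to appear early in damaged fibres and XIRP2 (myomaxin) sits at the Z-disc and the myotendinous junction. *Xirp1* (gene ID 22437, chr9:120013755-120023598) was at 174, 478, 220 and 273 CPM in WT and at 205, 183, 272 and 285 CPM in C2-/-. WT replicate 2 was again highest, 1.68-fold above the next mouse. The log2 fold change of *Xirp1* was −0.28 (SE 0.29, 95% interval −0.91 to 0.36, edgeR adjusted p = 0.969) and 0.10 without WT replicate 2.

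*Xirp2* behaved differently, with WT replicate 2 at the bottom. The gene (ID 241431, chr2:67446000-67526620) was at 1726, 1391, 2740 and 2092 CPM in WT and at 1956, 2301, 3555 and 2481 CPM in C2-/-. The genotypes overlapped, and the log2 fold change was 0.37 (SE 0.23, 95% interval −0.15 to 0.89, unadjusted p = 0.14, edgeR adjusted p = 0.968). Without WT replicate 3 it was 0.57 (SE 0.22, edgeR adjusted p = 0.593) and passed an unadjusted p of 0.05, as did 7.75% of all genes tested without this mouse. It was 0.18 (SE 0.22, edgeR adjusted p = 0.999) without C2-/- replicate 3 and 0.24 (SE 0.22, edgeR adjusted p = 0.994) without WT replicate 2. The share of *Xirp1* in the summed TPM of both genes was 41.4% in WT replicate 2 and lay between 13.6% and 21.1% in the remaining 7 mice.

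*Nrap* (gene ID 18175, chr19:56320037-56390063), a protein with both a LIM domain and nebulin-like repeats that takes part in myofibril assembly, was the steadiest member. It was at 1207, 1871, 1521 and 1805 CPM in WT and at 1683, 1791, 1530 and 1727 CPM in C2-/-. WT replicate 1 was lowest and WT replicate 2 highest, and all C2-/- mice lay between them. On the log2 scale C2-/- minus WT was 0.07 (SE 0.15, 95% interval −0.26 to 0.40, edgeR adjusted p = 0.987).

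**Figure D3:**
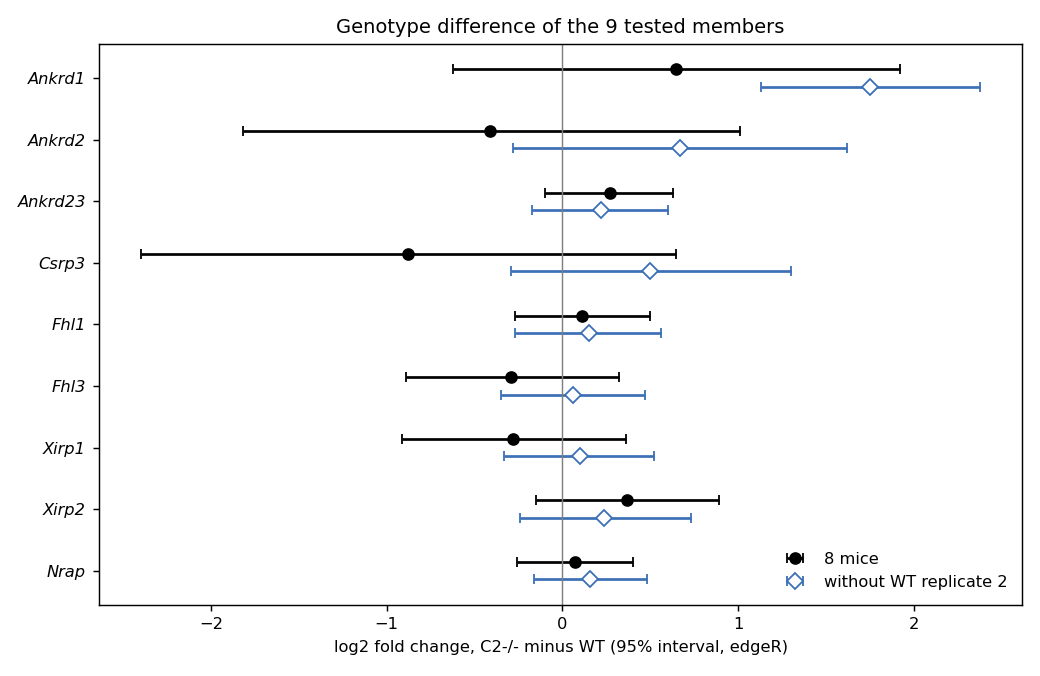
Log2 fold change of the 9 tested members, C2-/- minus WT, with 95% intervals from the edgeR fit, for all 8 mice (filled circles) and without WT replicate 2 (open diamonds). Every interval of the 8 mice includes 0, and without WT replicate 2 the interval of *Ankrd1*, 1.13 to 2.38, is the one that does not, while *Ankrd2*, *Csrp3*, *Fhl3* and *Xirp1* change sign.

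The rise in WT replicate 2 was not shared by all members. Relative to the mean of the other 3 WT mice, this mouse had 7.37-fold more *Csrp3*, 5.55-fold more *Ankrd1* and 5.40-fold more *Ankrd2* RNA, and of the 12542 tested genes 22, 43 and 47 had a larger ratio. The ratios of *Xirp1* and *Fhl3* were 2.15 and 2.06, with 459 and 520 genes above them. The ratios of *Nrap* (1.24), *Fhl1* (1.08), *Ankrd23* (0.853) and *Xirp2* (0.636) were larger than those of 73.1%, 58.7%, 32.9% and 12.8% of all tested genes. These ratios describe a single mouse, and no test was made of them.

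Other markers moved with this mouse. The 11 listed genes of regenerating or denervated fibres summed to 343 CPM in WT replicate 2, to between 102 and 110 CPM in the other WT mice and to between 118 and 214 CPM in C2-/-. Of the 10 of these genes that were tested, 8 were highest in WT replicate 2, beside 27.5% of all tested genes. Among the 8 were the myogenic factor *Myog* (16.7 CPM against at most 6.31 CPM elsewhere), the receptor subunit *Chrna1* (60.3 CPM against at most 26.3 CPM) and *Runx1* (21.4 CPM against at most 9.63 CPM). The embryonic myosin *Myh3* was not highest there, at 1.6 CPM in WT replicate 2 and between 1.23 and 8.76 CPM in the other mice. The myosin *Myh8* was lowest in WT replicate 2, at 1.6 CPM against 1.74 to 7.2 CPM in the other mice. *Myog*, *Chrna1*, *Runx1* and *Myh8* were picked with their values known.

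The summed level of the slow-fibre markers was 46.5 CPM in WT replicate 2, near the lowest of the 8 mice, and its *Myh7*, the slow myosin, was at 0.365 CPM, the lowest of all. The 14 immediate early genes summed to 1495 CPM in this mouse, below WT replicate 4 (2653 CPM) and C2-/- replicate 2 (1855 CPM) and above the other mice (457 to 701 CPM). In WT replicate 4, with the highest *Fos* (245 CPM), *Ankrd1*, *Ankrd2* and *Csrp3* were near their lowest values. The 9 tendon markers summed to 60.1 CPM in WT replicate 2, the lowest of the 8 mice, against 66.7 to 197 CPM in the other WT mice and 101 to 277 CPM in C2-/-, with *Scx* at 12.9 CPM in WT replicate 2 and none of the 9 genes at 0 in all mice. None of the 8 tested tendon markers, 6 smooth-muscle, 6 endothelial, 6 adipocyte or 6 Schwann cell markers was highest in WT replicate 2, and 1 of 6 macrophage markers was, with a summed level of 41.9 CPM there, 18 to 38.1 CPM in the other WT mice and 30.2 to 48.6 CPM in C2-/-. The part of fibre state or tissue composition in the values of this mouse was not tested.

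Over the 8 mice, *Ankrd2* and *Csrp3* followed each other closely. Pearson's r of their log2 CPM was 0.96 (two-sided exact permutation p = 7.44e-05, adjusted p = 0.00335 over the 45 pairs of members) and Spearman's rho was 0.98 (exact permutation p = 0.000397, adjusted p = 0.0179). This was the only pair of the 45 with an adjusted p under 0.05 by either measure. The relation did not rest on WT replicate 2, since r was 0.95 without it. Without WT replicates 2 and 3, the mice farthest from the median of *Ankrd2*, r was 0.96. With each genotype centred on its own mean, r was 0.97. In TPM, *Ankrd2* was between 1.62 and 2.74 times *Csrp3* in every mouse, although *Ankrd2* ranged from 14.2 to 111 TPM and *Csrp3* from 5.95 to 68.8 TPM. The size of this ratio depends on the lengths used, and per annotated exon length it was 4.73 to 8.03.

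3 further pairs had an unadjusted p under 0.05 for r, and none had one after adjustment. For *Csrp3* and *Fhl3*, r was 0.77 (exact permutation p = 0.0387, adjusted p = 0.456, rho = 0.45 with p = 0.267 and adjusted p = 0.796) and −0.15 without WT replicates 2 and 3, so that the relation rested on these mice. *Fhl3* and *Xirp1* had an r of 0.73 (exact permutation p = 0.0454, adjusted p = 0.456, rho = 0.36 with p = 0.389 and adjusted p = 0.796), 0.67 without WT replicate 2 and C2-/- replicate 4, and 0.19 without WT replicate 2 alone. For *Fhl2* and *Nrap*, r was −0.68 (exact permutation p = 0.0411, adjusted p = 0.456, rho = −0.67 with p = 0.0831 and adjusted p = 0.661) and −0.73 without C2-/- replicates 2 and 4, although *Fhl2* rested on few counts. *Ankrd1* was not part of the close pair: with *Ankrd2* its r was 0.56 (exact permutation p = 0.144, adjusted p = 0.456) and its rho 0.62 (exact permutation p = 0.115, adjusted p = 0.661). This r was 0.85 without WT replicates 1 and 4, the mice farthest from the median of *Ankrd1*, and 0.35 without WT replicate 2. WT replicate 1, which had a middle level of *Ankrd2* and *Csrp3*, had the lowest *Ankrd1* of all mice.

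**Figure D4:**
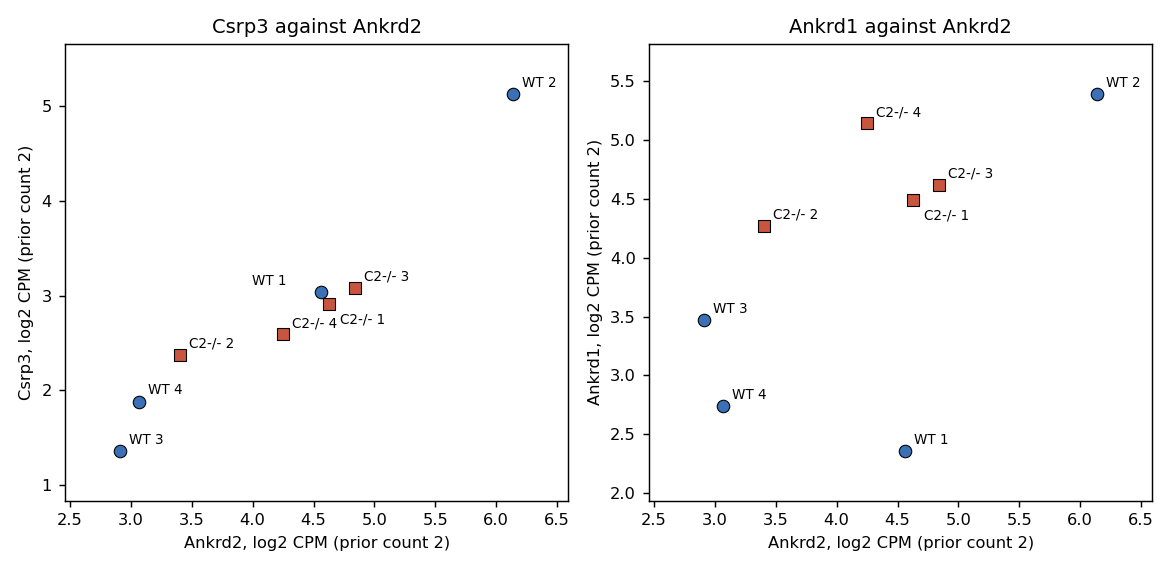
Log2 CPM (prior count 2) of *Csrp3* and of *Ankrd1* against *Ankrd2*, with 1 labelled point per mouse (circles WT, squares C2-/-). *Csrp3* and *Ankrd2* lie along a line from WT replicate 3 to WT replicate 2 (r = 0.96). In the plot of *Ankrd1* (r = 0.56), the C2-/- mice lie above WT replicates 1, 3 and 4 and below WT replicate 2. WT replicates 3 and 4 also had less *Ankrd2* than every C2-/- mouse.

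Across all tested genes, likeness to a member was measured as the root mean square difference of log2 CPM centred over the 8 mice, for the 3 members that varied most. The gene most like *Csrp3* was *Ankrd2*, and the gene most like *Ankrd2* was *Csrp3*, with a difference of 0.29, where the spread of *Csrp3* itself was 1.04. Next to *Csrp3* came *Aif1l*, an actin-bundling protein (0.38), and *Tnfrsf12a*, the receptor of the cytokine TWEAK (0.46). *Tnfrsf12a* was at 92.8 CPM in WT replicate 2 and between 9.77 and 27.7 CPM in the other mice. Next to *Ankrd2* came *Ube2c*, a ubiquitin-conjugating enzyme of dividing cells (0.40), and *Isg20*, an interferon-induced exonuclease (0.42). *Aif1l*, *Ube2c* and *Isg20* were likewise highest in WT replicate 2, at 21.7, 5.76 and 7.84 CPM. In the other mice they reached at most 4.13, 2.7 and 4.58 CPM. Likeness was not measured without WT replicate 2. The genes most like *Ankrd1* were *Tbxas1* (0.48), *Gimap3* (0.49) and *Arl4c* (0.52), all at or below 2.08 CPM in every mouse. With *Ankrd1*, *Ankrd2* ranked only 1837th and *Csrp3* 3265th in likeness.

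The partners of these proteins at titin, the Z-disc and the costamere moved little. Of 26 listed genes, all were tested, 9 were above and 17 below 0, and 0 passed an unadjusted p of 0.05 in the edgeR test, beside 5.29% of all tested genes. Their log2 fold changes lay between −0.27 and 0.27, with a median of −0.06. The genes with the smallest p were *Myot*, the Z-disc protein myotilin (−0.27, SE 0.14, unadjusted p = 0.0817), *Tcap*, the titin cap telethonin (−0.17, unadjusted p = 0.25), and *Pdlim5* (−0.27, unadjusted p = 0.311) among the lower genes. Among the higher ones they were *Csrp1*, a LIM relative of *Csrp3* (0.16, unadjusted p = 0.21), *Tln2*, a talin that links integrins to actin (0.26, unadjusted p = 0.282), and *Ttn*, titin itself (0.27, unadjusted p = 0.425). *Ttn* was at 1502 CPM in WT replicate 2, the lowest of the 8 mice, and between 2423 and 4982 CPM in the others. Without WT replicate 2, the log2 fold change was 0.04 (SE 0.23) for *Ttn*, 0.14 (SE 0.22) for *Tln2*, −0.15 (SE 0.12) for *Myot* and 0.02 (SE 0.19) for *Pdlim5*.

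Of 25 regulators and targets of mechanical signalling, 14 were above and 11 below 0, with a median log2 fold change of 0.01, and in the edgeR test 1 of the 25 passed an unadjusted p of 0.05 (higher in C2-/-), beside 3.38% of all tested genes in this direction, and 0 passed after adjustment. The gene was *Piezo1*, a stretch-activated cation channel, at 13.3 ± 2.82 CPM (SD, n = 4 mice) in WT and 17.6 ± 1.15 CPM (SD, n = 4) in C2-/-. Its log2 fold change was 0.40 (SE 0.16, unadjusted p = 0.0271, edgeR adjusted p = 0.882), and WT replicate 4, with 16.0 CPM, reached C2-/- replicate 2, also with 16.0 CPM. A single gene of 25 is a share near that of all genes. The LIM scaffold *Ajuba* (0.59, unadjusted p = 0.0615) and the TEAD factor *Tead3* (0.21, unadjusted p = 0.155) came next among the higher genes.

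Among the lower genes, *Trim63*, the ubiquitin ligase MuRF1 that binds titin and takes part in atrophy, differed by −1.21 on the log2 scale (SE 0.58, unadjusted p = 0.061, edgeR adjusted p = 0.968). It was at 682 CPM in WT replicate 2, at 82.1, 97.8 and 179 CPM in the other WT mice and between 104 and 131 CPM in C2-/-. Without WT replicate 2, a fit added after the data were seen, the difference was −0.08 (SE 0.23, edgeR adjusted p = 0.999). *Amotl2*, a target and partner of the Hippo pathway, was likewise highest in WT replicate 2, at 45.7 CPM against 10.6 to 20.6 CPM in the other mice (log2 fold change −0.61, unadjusted p = 0.122), and −0.09 (SE 0.22) without WT replicate 2. *Srf*, the serum response factor, had a log2 fold change of −0.18 (unadjusted p = 0.142).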

How the data were processed

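RNA of the TA muscle of 4 WT and 4 C2-/- mice was sequenced from poly(A)-selected libraries. The authors deposited expected counts of reads per gene, not normalized, from reads aligned with HISAT to GRCm38.p6 and, by the study's methods, counted with featureCounts, and TPM computed from the same reads. The submitters' processing notes also name Bowtie2 and DESeq2. Whether counting used the strand was not given in the sources used here. Between 5.5% and 6.53% of the expected counts of a mouse were not whole, although featureCounts gives whole counts by default, and all were rounded before testing. The table also holds FPKM in 8 columns, group averages and the authors' own fold changes and p-values, which were not used. Counts and a gene ID were present in 16686 of 16687 rows, with 24 symbols restored from gene IDs.

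Genotypes were compared by edgeR 4.0.16 (R 4.3.3, quasi-likelihood F test, TMM factors of 0.929 to 1.03, default filter on low counts, 12542 genes tested) with Benjamini-Hochberg adjustment over all tested genes, although the study's methods name limma-voom, which was run as an alternative. A call needed more than 1.5-fold and an adjusted p under 0.05, which 4 genes reached. CPM use TMM-scaled library sizes, and log2 CPM a prior count of 2. The lowest level that could be shown was set at 3 counts, which covers counting error only. The fit was also run on simulated counts with 200 changed genes, and the outcome is not given here. Alternatives were RLE factors, limma-voom without and with sample quality weights (limma 3.58.1), DESeq2 1.42.0, no filter, at least 10 counts in every mouse, a replicate block, and a fit without each mouse in turn. TPM was set against counts per exon length of GENCODE vM21, which covered 97.9% of the genes. Permutation tests and correlations used scipy 1.17.1 in Python 3.11.15.

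The members and gene lists were chosen with earlier results of these data known. Named genes are *Mybpc2*, the members, those of smallest p in each direction of the partner and mechanical signalling lists (at most 3 each), the 3 genes most like each of the 3 members with the largest SD over the mice, and the first gene of a marker list. *Myog*, *Chrna1*, *Runx1* and *Myh8* are exceptions to it, picked once their values had been seen. Nothing beyond the label says how the mice of a group are related. The edgeR p-values set the genotype difference against the spread between mice of the same genotype, and take the 8 mice as independent. Sequences are from RefSeq's GRCm38.p6 promoter table.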

Additional observations from a re-analysis of the deposited data

Results flagged for a closer look

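There were 22 groups of 4 mice, 10 members and *Mybpc2* in each genotype. In 2 of them a mouse was set apart from the other 3 by Dixon's criterion at the 95% level. Chance alone gives this in about 5% of groups of normally spread values, and the criterion was applied here to CPM and not to log2 CPM. *Ankrd1* in WT replicate 2 was at 41.8 CPM, where the next WT mouse was at 11 CPM, a gap of 0.839 of the range of the group. In log2 CPM, WT replicates 1, 2, 3 and 4 were at 2.36, 5.39, 3.47 and 2.74, where the gap is a smaller part of the range and below the criterion. *Mybpc2* in C2-/- replicate 3 was at 38.3 CPM, where the next C2-/- mouse was at 4.35 CPM, a gap of 0.985 of the range. *Ankrd2* and *Csrp3* in WT replicate 2 did not pass this criterion, although they were further above the next of all 8 mice (2.47-fold and 4.18-fold) than *Ankrd1* (1.19-fold).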

How the results depend on the processing

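The adjusted p of the 9 tested members stayed above 0.05 under all 15 alternatives, or 14 for *Ankrd1*, to which DESeq2's Wald test gave no p, and that of *Mybpc2* stayed below 0.05. Signs turned for some members, all with 95% intervals that included 0 in the fit of the 8 mice. Without WT replicate 2 the log2 fold change was 0.67 for *Ankrd2*, 0.50 for *Csrp3*, 0.06 for *Fhl3* and 0.10 for *Xirp1*, and, in a fit added after the data were seen, 0.02 for *Pdlim5* (−0.27 with all mice), and without WT replicate 1 it was −0.04 for *Nrap*. Over all fits without 1 mouse the lowest and highest values were 0.35 and 1.75 for *Ankrd1*, 0.18 and 0.57 for *Xirp2*, −0.71 and 0.67 for *Ankrd2*, −1.20 and 0.50 for *Csrp3*, −0.43 and 0.06 for *Fhl3*, −0.46 and 0.10 for *Xirp1*, and −0.04 and 0.16 for *Nrap*. *Ankrd2* was at 0.11 with limma-voom and at 0.60 with sample quality weights, which also gave 0.49 for *Csrp3*. With limma-voom and sample quality weights, 1 member, *Ankrd1*, had an unadjusted p under 0.05, as did 6.29% of all genes. The causes of these changes were not tested. With the replicate number as a block, *Ankrd2* was at 0.22 and 1 member, *Xirp2*, had an unadjusted p of 0.0202, where 5.26% of all genes passed 0.05. A pairing of the mice by replicate number was not clear from the values. The correlations of same-numbered deviations were 0.267, 0.042, −0.0507 and 0.0212, and 2 of 8 mice correlated best with their own number. These had no reference to be set against, and a shared litter or batch was not tested. Leaving out each mouse in turn, between 0 and 1 members had an unadjusted p under 0.05 and between 4 and 7 genes were called, with 7 genes without WT replicate 2 and 1 member without WT replicate 2 (*Ankrd1*) or 3 (*Xirp2*), where 5.9% and 7.75% of all genes passed, while DESeq2's Wald test called 38. Per exon length of the annotation in place of the authors' TPM, the order of *Fhl1* (733) and *Nrap* (891) changed. Depth limits *Fhl2*, which was tested under 6 alternatives only.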
